A study of Mus musculus with 38 samples.

Results

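3 daily doses of granulocyte colony-stimulating factor (G-CSF) were set against no treatment in whole bone marrow of the mouse. The comparison holds 5 of the 38 samples of the series: 3 libraries of marrow from mice given G-CSF alone and 2 of marrow from untreated mice, chosen by their labels. Both groups were unsorted marrow of female mice that the labels give as C57BL/6, aged 6 to 7 weeks, bought as C57BL/6J. The treated mice received recombinant human G-CSF into the peritoneum at 50 µg per kg on each of 3 days, and no agent is named for the untreated mice. The labels number the replicates but do not tie them to single animals, so each p value reflects only how these libraries spread, which may be technical. The same table holds 2 libraries after zoledronic acid (ZA, a bisphosphonate) and 2 after ZA with G-CSF (combined), which entered the fit to help estimate the spread. The study set each pair of treatments side by side, in marrow and in osteoclast precursors.

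G-CSF acts through its receptor, Csf3r, on granulocyte precursors and neutrophils, where JAK kinases and STAT3 carry the signal and SOCS proteins damp it. It speeds the division and maturation of neutrophil precursors. It also loosens the hold of the marrow on stem cells, a hold that rests on the chemokine Cxcl12 from stromal cells, its receptor Cxcr4 and adhesion through Vcam1. In marrow it is known to lower the number of resident macrophages, to quieten osteoblasts and to check B cell and red cell production. Because marrow is a mixture, fewer cells of a type and less RNA per cell cannot be told apart in these libraries.

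Levels are CPM, the counts of a gene as a part of the TMM-scaled library total, and are listed as untreated replicates 1 and 2, then G-CSF replicates 1, 2 and 3. Changes are log2 ratios of G-CSF over untreated ± standard error, and adjusted p values come from edgeR's quasi-likelihood test over all genes. A gene is called where the adjusted p is under 0.05. A called gene given with its values also stayed called in each of the 9 fits that left out 1 library, unless the library that ended the call is named.

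The 5 libraries held 6236000 to 16152000 estimated counts, and 3 counts in a library amount to 0.173 to 0.678 CPM, which is as much as a count of 0 allows. Markers of the marrow lineages were all present: summed neutrophil markers lay between 24582 and 35374 CPM, erythroid markers between 49666 and 210377 CPM, and B lineage markers between 375 and 559.9 CPM. Untreated replicate 1 stood apart in short RNAs. Genes of small RNA classes took 39.95% of its TPM (transcript abundance per length) against 7.97% in untreated replicate 2 and 10.2%, 10.7% and 14.3% with G-CSF. By estimated counts, which do not weight short transcripts up, the share was 9.09% against 0.481% and 0.488% to 0.711%.

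The excess of untreated replicate 1 sat in few genes. Mir6236 and 3 predicted miRNA genes that share a sequence and a value, Gm23935, Gm24245 and Gm24270, held 31.9% of its TPM, against 1.61% in untreated replicate 2 and 1.54% to 4.56% with G-CSF. Mir6236 was at 4831 and 102 CPM in untreated and 92.5, 144 and 234 CPM in G-CSF marrow (log2 change −3.98 ± 1.24, adjusted p = 0.0841), so untreated replicate 1 alone was high. Ribosomal RNA genes took 7.96% of the counts of untreated replicate 1, against 0.199% in untreated replicate 2. The mature miRNA annotated at Mir6236 (RefSeq on GRCm38.p6, chr9:110281353-110281371, plus strand) is shown because that locus alone held 16.4% of the TPM of untreated replicate 1, with its seed, bases 2 to 8, in capitals:
mmu-miR-6236: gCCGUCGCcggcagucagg
With small RNA genes left out of the fit, 725 genes were higher and 1018 lower, against 727 and 1019 with them.

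**Figure D1:**
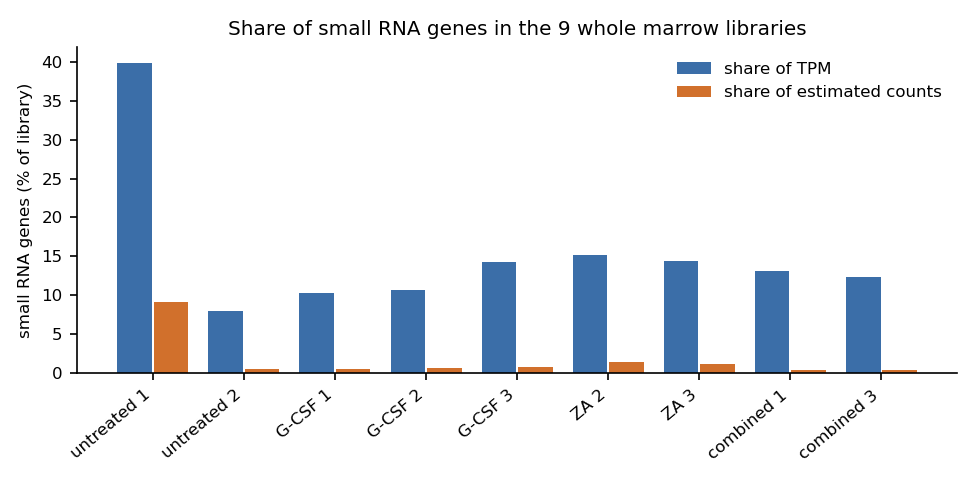
Share of small RNA genes in each of the 9 whole marrow libraries, in percent of TPM (blue) and of estimated counts (orange). Untreated replicate 1 reaches 39.95% of TPM and 9.09% of counts, above each other library on both scales.

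Genes known to vary between laboratory strains separated the libraries along the same line as the treatment. H2-Ea-ps, a class II pseudogene that is silent in C57BL/6 mice, was at 0 and 0 TPM in untreated and 1.33, 1.66 and 3.82 TPM in G-CSF marrow, with 3.28 and 5.01 TPM in the combined group and 0 in both ZA libraries (adjusted p = 0.0172, though not called with untreated replicate 2 (at an adjusted p of 0.081) left out). Nnt, a mitochondrial transhydrogenase that C57BL/6J mice carry in a deleted form, was at 1.46 and 3.89 TPM untreated and 7.49, 9.16 and 10.7 TPM with G-CSF, although its level was 5.72 to 10.05 TPM in all 8 precursor libraries of the first sequencing run. H2-Ea-ps was at 0 in those 8 precursor libraries, of which 3 came from mice given G-CSF and 3 from mice given both agents. Foxn1, the gene that is broken in nude mice, was at 0 in all 9 marrow libraries and so checks nothing. Of the 20 genes listed as strain-variable 16 were tested, and 6 rose and 4 fell. Genetic background and treatment cannot be told apart in this comparison, and genes near 0 on one side are therefore set apart at the end.

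Other whole marrow libraries could not serve as further replicates. The first-run marrow libraries of the second table repeat untreated replicate 2 and G-CSF replicate 2 of the first, with 99.8% of genes within 1% of each other. In the second run, the library labelled marrow untreated 2 correlated at a Spearman's rho of 0.98 with the first-run precursors of the same label and at 0.73 with the first-run marrow, across 6744 genes that are not independent. The library labelled marrow G-CSF 2 gave 0.98 and 0.68, while the second-run libraries labelled precursors gave 0.94 and 0.96 with first-run marrow. These second-run libraries go against their labels and were not used.

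Of 14737 genes tested 1746 were called (11.8%), 727 higher (4.93%) and 1019 lower (6.91%) with G-CSF. With untreated replicate 2 left out 836 were called, with G-CSF replicate 1 left out 1009 and with G-CSF replicate 2 left out 1003. In all 9 fits with a library left out, 534 genes were called the same way, 216 higher and 318 lower. On the scale of log2(TPM + 0.5) with limma the split was 3087 higher and 181 lower, with a median over all genes of 0.62, where the count fit has 0.01. Medians of lists on TPM scales are therefore read against that median of all genes. Groups did not overlap in 45.2% of the tested genes, which is the background for such counts, and the groups of 8 called genes did overlap.

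After the 235 called genes at a mean of 0.1 TPM or less in either group were set apart, 1511 remained, 563 higher and 948 lower, of which 1259 were protein-coding. Their changes were mostly moderate: the median size was 1.23 on the log2 scale, 526 changed less than 2-fold and 342 more than 4-fold. The median of the higher genes was 1.17 and that of the lower genes −1.26. Counts of gene lists below keep the genes near 0 on one side. Each such count has as its background the 11.8% called among all tested genes. The plot of change against level shows the remaining genes as a band on each side of 0, with the near-0 genes on steep lines above and below it.

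**Figure D2:**
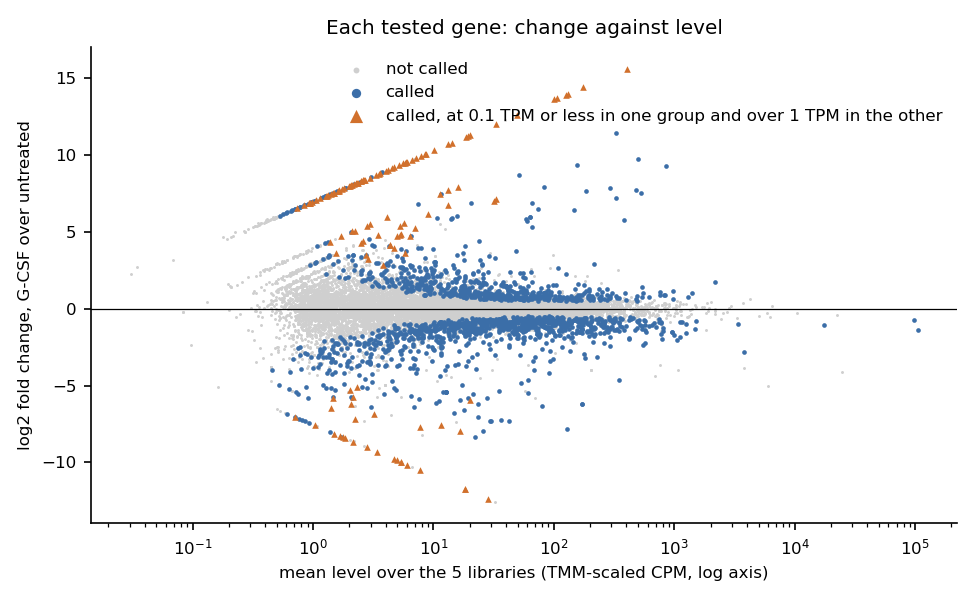
Log2 fold change of each of the 14737 tested genes against its mean level over the 5 libraries (CPM, log axis), with called genes in blue and the 129 called genes at 0.1 TPM or less in one group and over 1 TPM in the other as orange triangles. The triangles lie on steep lines far from 0, while most blue points form a band on each side of it.

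The receptor of G-CSF and its best known feedback gene were near their untreated levels. Csf3r was at 142 and 205 CPM in untreated and 165, 167 and 189.9 CPM in G-CSF marrow (log2 change 0.00 ± 0.21, adjusted p = 1), and the groups overlapped. Socs3, which blocks signalling at this receptor, was at 5.89 and 5.23 CPM untreated and 5.01, 4.17 and 20.5 CPM with G-CSF (0.82 ± 0.70, adjusted p = 0.469), with only G-CSF replicate 3 above the untreated libraries. Of 26 genes of the G-CSF signalling list 3 rose and 3 fell. Cebpd, the transcription factor C/EBP delta that STAT3 is known to induce, rose from 58.6 and 53.97 to 112, 106 and 139 CPM (1.08 ± 0.18, adjusted p = 0.00645). Its groups did not overlap, as naming by rule required. The related Cebpb, known for emergency granulocyte production, rose by 1.01 ± 0.25 on the log2 scale (adjusted p = 0.0297), though not with untreated replicate 1 (at an adjusted p of 0.0989), untreated replicate 2 (0.122), G-CSF replicate 1 (0.0524) or G-CSF replicate 3 (0.0667) left out. Gfi1, a repressor that neutrophil precursors need, rose by 0.81 ± 0.19 (adjusted p = 0.0244), though not with untreated replicate 1 (at an adjusted p of 0.0984), G-CSF replicate 1 (0.0512) or G-CSF replicate 3 (0.0526) left out. Cish, another STAT-induced inhibitor of cytokine receptors, fell from 19.7 and 10.96 to 1.45, 3.82 and 1.42 CPM (−2.72 ± 0.50, adjusted p = 0.00968), though not with untreated replicate 1 (at an adjusted p of 0.0513) left out. The adaptors Grb2 and Shc1 made up the other 2 that fell. Cebpe, a factor of later granulocyte maturation, was at 105 and 96.98 CPM untreated and 127, 90.02 and 85.9 CPM with G-CSF (0.00 ± 0.21, adjusted p = 0.995). Instead of 6, there were 3 calls on leaving out untreated replicate 2 or G-CSF replicate 3, and 2 on leaving out G-CSF replicate 1; the median of the list was −0.08 but lay above that of all genes by 0.12 on the log2(TPM + 0.5) scale.

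Of the genes of early neutrophil granules 5 of 10 rose, and those of later granules mostly were not called. Primary granule proteases are made at the promyelocyte stage and stored for killing microbes. None of the 10 fell, and the list had a median of 0.59 against 0.01 for all genes. Prtn3, proteinase 3, rose from 405 and 271 to 699, 659 and 700.2 CPM (1.02 ± 0.18, adjusted p = 0.00869). Myeloperoxidase, Mpo, was at 977 and 726 CPM in untreated and 2081, 1627 and 1541 CPM in G-CSF marrow (1.04 ± 0.19, adjusted p = 0.00966). Neutrophil elastase, Elane, went from 431 and 334 to 709, 646 and 586 CPM (0.76 ± 0.17, adjusted p = 0.0189), and cathepsin G, Ctsg, from 187 and 148 to 342, 305 and 237 CPM (0.81 ± 0.18, adjusted p = 0.0214). In each of these 4 genes the lowest G-CSF library lay above the highest untreated one, as naming by rule required. The calls ended for Mpo with untreated replicate 2 (at an adjusted p of 0.0804) left out, for Elane with untreated replicate 2 (at an adjusted p of 0.137), G-CSF replicate 1 (0.0576) or G-CSF replicate 2 (0.0558) left out and for Ctsg with untreated replicate 2 (at an adjusted p of 0.147), G-CSF replicate 1 (0.0619) or G-CSF replicate 2 (0.0648) left out, so that the list count was 1 without untreated replicate 2 and 3 without G-CSF replicate 1 or 2. The other called member was Nkg7.

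Of 16 secondary and tertiary granule genes 1 fell and none rose (6.25% called, against 11.8% of all tested genes), and the median was −0.23. The one that fell was Chil3, a chitinase-like protein that neutrophils and macrophages store, at 2354 and 1627 CPM in untreated and 550.0, 595 and 489 CPM in G-CSF marrow (−1.87 ± 0.20, adjusted p = 0.000489). Its G-CSF libraries lay close together, and naming by rule required them to lie below the untreated ones. The count was 3 without untreated replicate 1. Chil5, a relative of Chil3, moved the other way, from 4.08 and 6.38 to 38.6, 39.05 and 39.4 CPM (2.88 ± 0.23, adjusted p = 0.000104), and was among the 12 protein-coding genes with the largest rise. In the list of calprotectin, stefins and mature neutrophil surface genes 3 of 20 rose and 2 fell. Ly6g, the surface antigen by which mouse neutrophils are sorted, rose from 117 and 101 to 253, 246 and 212 CPM (1.12 ± 0.15, adjusted p = 0.00232). Itgb2l, a beta integrin of maturing neutrophils (chromosome 16, 96422288 to 96443619, mm10), fell from 174 and 247 to 22.7, 17.3 and 26.6 CPM (−3.25 ± 0.25, adjusted p = 7.8e-05). Anxa1, annexin A1, an abundant protein of neutrophils, rose from 902 and 933 to 1631, 1695 and 1372 CPM (0.77 ± 0.15, adjusted p = 0.0107), though not with untreated replicate 1 (at an adjusted p of 0.051) or untreated replicate 2 (0.0617) left out. The summed neutrophil markers overlapped between the groups, at 34086 and 30807 CPM in untreated and 35374, 31763 and 24582 CPM in G-CSF marrow.

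Most of the best known genes of stem cell retention were not called. Cxcr4, the receptor that anchors stem cells and neutrophils to the marrow, was at 332 and 266 CPM untreated and 202, 197 and 187 CPM with G-CSF (−0.61 ± 0.16, adjusted p = 0.0418). This fall was not called with untreated replicate 1 (at an adjusted p of 0.194), untreated replicate 2 (0.0589), G-CSF replicate 1 (0.0958), G-CSF replicate 2 (0.103), G-CSF replicate 3 (0.0871), combined replicate 1 (0.062) or combined replicate 3 (0.061) left out, and on the log2(TPM + 0.5) scale the change was 0.25, which is −0.37 relative to all genes there. Its ligand Cxcl12 was higher in each G-CSF library, at 121 and 94.9 CPM untreated and 310.3, 316 and 393 CPM with G-CSF (1.66 ± 0.64, adjusted p = 0.137). It was called with ZA replicate 2 (at an adjusted p of 0.00137) or ZA replicate 3 (0.0014) left out, and its level in ZA replicates 2 and 3 was 74.6 and 460.1 CPM. Kitl, the stem cell factor of stroma and endothelium, showed the same pattern with 5.66 and 5.40 CPM untreated and 11.6, 12.4 and 19.1 CPM with G-CSF (1.37 ± 0.55, adjusted p = 0.134), and was called with ZA replicate 2 (at an adjusted p of 0.0226) or ZA replicate 3 (0.0232) left out. Vcam1 had levels of 165 and 144 CPM untreated and 195, 201 and 218 CPM with G-CSF (0.41 ± 0.14, adjusted p = 0.0838), and the protease Mmp9 669 and 1018 CPM untreated and 829.8, 769 and 898 CPM with G-CSF (−0.02 ± 0.19, adjusted p = 0.959). Kit, the stem cell factor receptor, was at 22.2 and 52.2 CPM untreated and 25.4, 34.4 and 34.3 CPM with G-CSF (−0.25 ± 0.30, adjusted p = 0.621). In the whole mobilisation list 4 of 20 rose (Cpn1, Ctsg, Elane and Itgb1) and 2 fell, Cxcr4 among them. The 6 calls became 1 without untreated replicate 2, G-CSF replicate 1 or G-CSF replicate 2.

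Of 14 chemokine receptors tested 7 fell and none rose, with a median of −0.86. Cx3cr1, the fractalkine receptor of patrolling monocytes, was at 28.5 and 43.99 CPM in untreated and 6.17, 8.23 and 6.71 CPM in G-CSF marrow (−2.36 ± 0.25, adjusted p = 0.000489). Ccr3, the eotaxin receptor of eosinophils and basophils, fell by 1.24 ± 0.28 (adjusted p = 0.0202), though not with untreated replicate 1 (at an adjusted p of 0.0866), untreated replicate 2 (0.0534), G-CSF replicate 1 (0.0608) or G-CSF replicate 3 (0.0551) left out. The others that fell were Cxcr6, Ccr9, Ccr7, Ccr2 and Cxcr4. The count was 1 with untreated replicate 2 left out, 2 with untreated replicate 1 or G-CSF replicate 1 left out, 3 with G-CSF replicate 2 left out, and 4 with G-CSF replicate 3 or either combined library left out. Among 14 chemokine genes only Ccl9, a macrophage and myeloid chemokine, was called, falling from 117 and 82.4 to 40.1, 51.1 and 38.3 CPM (−1.21 ± 0.19, adjusted p = 0.0052). Without ZA replicate 2 or 3 the chemokine list had 3 higher and 2 lower.

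Monocyte and macrophage genes fell in number. Of 20 monocyte genes 9 fell and none rose, with a median of −0.63, and 18 of 20 had negative changes. Beside Cx3cr1, Irf8, the transcription factor that sets monocyte and dendritic fate, fell from 206 and 338 to 121, 96.2 and 92.8 CPM (−1.40 ± 0.23, adjusted p = 0.00528). Ly6c2, the antigen of inflammatory monocytes, fell from 522 and 457 to 68.6, 65.5 and 34.9 CPM (−3.12 ± 0.28, adjusted p = 0.00021), but its near copy Ly6c1 rose from 4.75 and 3.60 to 52.5, 54.05 and 28.6 CPM (3.44 ± 0.35, adjusted p = 0.000405), and reads of the pair cannot be assigned with certainty. Instead of 9, there were 5 calls with untreated replicate 2 or G-CSF replicate 2 left out and 4 with G-CSF replicate 1 left out. Of 20 genes of resident marrow macrophages 8 fell and none rose, with a median of −0.30. Axl, a receptor that macrophages use to take up dying cells, fell from 139 and 123 to 32.3, 44.95 and 36.4 CPM (−1.78 ± 0.17, adjusted p = 0.000342), and Trem2, a lipid-sensing receptor, from 11.5 and 8.83 to 2.50, 2.78 and 2.65 CPM (−1.93 ± 0.28, adjusted p = 0.00305). In both genes the 3 G-CSF libraries lay close together, and naming by rule required them to lie below the untreated ones. Siglec1, the sialoadhesin of macrophages that support red cell precursors and the stem cell niche, fell by 1.26 ± 0.24 (adjusted p = 0.00987), though not with untreated replicate 2 (at an adjusted p of 0.0807) left out. Instead of 8, there were 4 calls with untreated replicate 1 or G-CSF replicate 2 left out and 5 with untreated replicate 2 left out. Relative to all genes the median of this list was −0.07 on the log2(TPM + 0.5) scale and that of the monocyte list −0.43. The summed monocyte markers were at 572 and 705 CPM in untreated and 442, 475 and 388 CPM in G-CSF marrow.

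Surface receptors of myeloid cells fell across several families. Of 21 Siglec, CD300 and paired Ig-like receptors, which tune the response of myeloid cells to lipids and sugars, 10 fell and none rose, with a median of −0.66. Cd300ld (ENSMUSG00000034641, chromosome 11, 114982274 to 114989922, mm10), an activating receptor of myeloid cells, fell from 24.7 and 33.4 to 2.02, 2.20 and 2.36 CPM (−3.72 ± 0.28, adjusted p = 6.9e-05). Cd300a, an inhibitory receptor, fell from 122 and 118 to 55.3, 43.7 and 30.4 CPM (−1.48 ± 0.22, adjusted p = 0.00376). The count was 4 without untreated replicate 2 and 5 without G-CSF replicate 1 or 2. Of 15 dendritic cell genes 5 fell and none rose, with a median of −0.51; the count was 3 without untreated replicate 2. Ly6d, which marks plasmacytoid dendritic and early B cells, fell from 123 and 82.3 to 26.7, 24.4 and 23.9 CPM (−2.03 ± 0.18, adjusted p = 0.000213), and Cd209a, a lectin of dendritic cells, from 13.1 and 9.98 to 2.41, 3.65 and 3.50 CPM (−1.84 ± 0.33, adjusted p = 0.0081).

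Of 24 toll-like and other pattern receptors 5 fell and none rose, with a median of −0.73. Aim2, a sensor of DNA in the cytosol, fell from 38.3 and 29.9 to 8.86, 9.15 and 12.6 CPM (−1.74 ± 0.29, adjusted p = 0.00609). Nlrp3, the inflammasome sensor, fell by 1.02 ± 0.19 (adjusted p = 0.00937), though not with untreated replicate 2 (at an adjusted p of 0.0513) left out. The others were Tlr9, Clec7a and Pycard, and the count was 2 without untreated replicate 2 and 3 without G-CSF replicate 2 or 3. Of 26 cytokine receptors 6 fell and none rose, with a median of −0.42. Il1rl1, the receptor of interleukin-33, was at 32.6 and 45.3 CPM in untreated and 12.3, 13.5 and 15.5 CPM in G-CSF marrow (−1.50 ± 0.20, adjusted p = 0.002), and Tnfrsf1b, the second TNF receptor, at 70.6 and 115 CPM untreated and 38.5, 43.2 and 41.1 CPM with G-CSF (−1.18 ± 0.20, adjusted p = 0.0069). Without untreated replicate 2, G-CSF replicate 1 or G-CSF replicate 2 the counts of cytokine receptors were 3, 2 and 3. Of 17 Fc and complement receptors 3 fell (C5ar2, Fcgr3 and Fcgr4) and none rose. Fcgr3, an activating antibody receptor, fell from 153 and 152 to 87.4, 86.03 and 76.3 CPM (−0.87 ± 0.14, adjusted p = 0.00542) and was the 1 that remained called without untreated replicate 2, G-CSF replicate 2 or combined replicate 1.

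**Figure D3:**
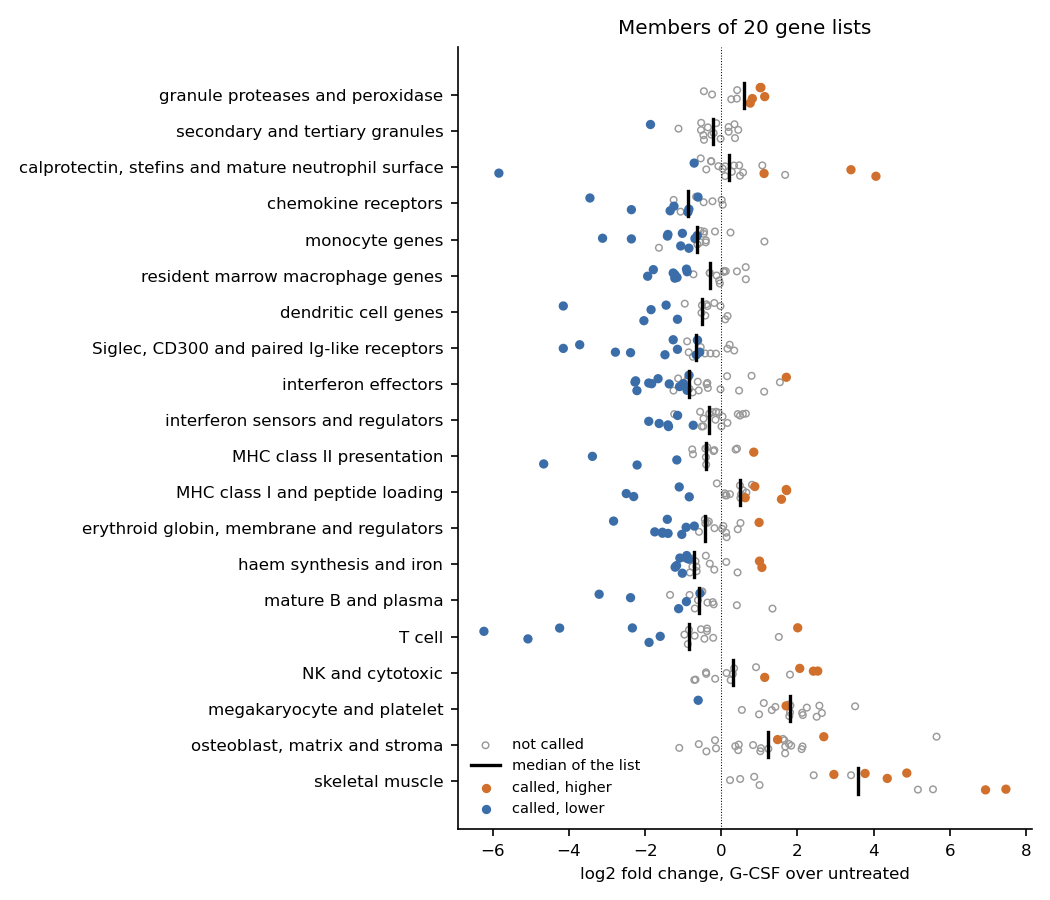
Log2 fold change of each tested member of 20 gene lists, one list per line, with filled points for called genes (orange higher, blue lower), open points for genes not called and a black bar at the median. The bars of the chemokine receptor, monocyte, interferon effector and T cell lists lie below 0 (−0.86, −0.63, −0.86 and −0.85), and those of the megakaryocyte, stroma and muscle lists above it (1.79, 1.24 and 3.59).

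Part of the interferon-induced genes fell with G-CSF. Type I interferon acts through transcription factors that bind a short DNA element near the start of antiviral genes. Of 30 interferon effector genes 11 fell and 1 rose, with a median of −0.86, and of 23 interferon sensors and regulators 6 fell and none rose, with a median of −0.32. The fallen effectors were Rsad2, Isg15, Mx1, Oasl1, Oas3, Ifit1, Cmpk2, Oas1a, Isg20, Eif2ak2 and Ifit2. Without untreated replicate 2 the counts were 5 lower effectors and 2 lower regulators, and the regulators were 3 without G-CSF replicate 2 or 3.

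The windows just before the start of 3 fallen effectors are shown because each holds the core of this element, GAAANNGAAA (N is any base), on 1 of the strands. Each is 130 bases long and ends at the base before the start site, read 5′ to 3′ along the gene (RefSeq, GRCm38.p6), with the fixed letters of each match in capitals:
Isg15 (chr4:156200819-156200948, minus strand): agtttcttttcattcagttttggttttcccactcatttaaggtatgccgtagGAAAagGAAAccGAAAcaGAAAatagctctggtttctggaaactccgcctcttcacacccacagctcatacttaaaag
Ifit1 (chr19:34640759-34640888, plus strand): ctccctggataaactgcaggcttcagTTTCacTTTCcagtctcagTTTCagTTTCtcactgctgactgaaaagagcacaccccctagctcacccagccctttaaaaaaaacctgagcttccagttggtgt
Rsad2 (chr12:26456453-26456582, minus strand): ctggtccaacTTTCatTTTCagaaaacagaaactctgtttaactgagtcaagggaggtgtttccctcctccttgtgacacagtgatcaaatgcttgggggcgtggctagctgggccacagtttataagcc
The window of Isg15 holds 3 overlapping matches, that of Ifit1 2 and that of Rsad2 1. Both strands of the 250 bases before each start were searched, and 978 of 32851 RefSeq windows (2.98%) held a match. Among the interferon list genes with a window, 5 of 15 that fell, 9 of 24 that were not called and the 1 that rose held a match; these shares are a description of the windows.

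Rsad2, viperin, which makes a chain-terminating nucleotide against viruses, was at 941 and 1222 CPM in untreated and 235, 246 and 193 CPM in G-CSF marrow (−2.27 ± 0.19, adjusted p = 0.000172). Isg15, a ubiquitin-like protein, was at 169.6 and 156 CPM untreated and 47.8, 38.4 and 16.5 CPM with G-CSF (−2.25 ± 0.38, adjusted p = 0.00772), with G-CSF replicate 3 lowest. Ifit1, which binds foreign RNA, was at 21.5 and 29.1 CPM untreated and 7.80, 10.6 and 5.48 CPM with G-CSF (−1.66 ± 0.31, adjusted p = 0.00943), though it was not called with untreated replicate 2 (at an adjusted p of 0.0745) left out. Irf7, the factor that amplifies interferon production, fell from 79.7 and 119.5 to 31.9, 25.5 and 22.5 CPM (−1.90 ± 0.24, adjusted p = 0.00137). In these genes no G-CSF library reached the lowest untreated one. Naming by rule required this, and Ifit1 was chosen after its values were seen. The 1 effector that rose was Igtp, a GTPase that interferon gamma induces, from 29.4 and 26.5 to 107, 98.1 and 68.6 CPM (1.71 ± 0.22, adjusted p = 0.00172).

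Antigen presentation genes divided. Class I molecules show peptides from inside any cell to killer T cells, and class II molecules show peptides of captured antigens to helper T cells. Of 21 class I and peptide loading genes 5 rose (H2-D1, H2-T10, H2-Q4, H2-K1 and B2m) and 4 fell (H2-T23, H2-T22, Tapbp and H2-T24), with a median of 0.50. The classical H2-D1 rose from 994 and 835 to 2800.2, 2866 and 3340.2 CPM (1.72 ± 0.16, adjusted p = 0.000262). H2-K1, the other classical gene, rose from 499 and 511 to 866, 874 and 1048 CPM (0.88 ± 0.14, adjusted p = 0.00585). The non-classical H2-T23, a ligand of NK cell receptors, fell from 254 and 206 to 44.99, 42.00 and 35.4 CPM (−2.50 ± 0.17, adjusted p = 3.9e-05), and H2-T22 from 58.9 and 52.2 to 11.1, 10.4 and 12.3 CPM (−2.30 ± 0.16, adjusted p = 4.2e-05). These genes vary between strains and share sequence with each other (26.9% of the 31-base words of H2-D1 and 67.4% of those of H2-T22 occur in other genes), so their levels are uncertain. Tapbp, tapasin, which helps load peptides, fell by 1.10 ± 0.20 (adjusted p = 0.00804), though not with untreated replicate 2 (at an adjusted p of 0.0512) left out. Of 15 class II genes 4 fell (H2-Eb1, H2-Ob, H2-Eb2 and Ciita) and 1, Ifi30, rose. H2-Eb1 fell from 129.5 and 157 to 7.13, 4.40 and 5.58 CPM (−4.66 ± 0.26, adjusted p = 1.4e-05) and H2-Ob, which restrains peptide loading in B cells, from 41.9 and 41.9 to 2.79, 2.90 and 6.43 CPM (−3.38 ± 0.33, adjusted p = 0.000354). H2-Eb1 is also among the genes listed as strain-variable, and was at 101 and 149 CPM in ZA and 4.04 and 5.25 CPM in combined marrow. Genetic background and treatment cannot be told apart in it. The class II count was 2 without untreated replicate 2 and 3 without G-CSF replicate 2.

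Part of the red cell genes fell. Of 22 genes for globin, red cell membrane and erythroid regulators 9 fell and 1 rose, with a median of −0.43. Slc4a1, band 3, the anion exchanger of the red cell membrane, was at 6069 and 9444 CPM in untreated and 1222, 1239 and 813 CPM in G-CSF marrow (−2.83 ± 0.34, adjusted p = 0.00141). The membrane skeleton genes Epb41 and Epb42 fell from 1381 and 1793 to 519, 573 and 538 CPM (−1.55 ± 0.15, adjusted p = 0.000313) and from 338 and 404 to 126, 137 and 68.4 CPM (−1.75 ± 0.26, adjusted p = 0.00378). Globin transcripts were abundant: Hbb-bs, a beta chain, was at 199501 and 136102 CPM in untreated and 75322, 66691 and 46403 CPM in G-CSF marrow (−1.42 ± 0.24, adjusted p = 0.00628). Hba-a2, an alpha chain whose reads may be shared with its sister gene, fell by 0.71 ± 0.19 (adjusted p = 0.0431), and this call was lost in each fit that left out 1 library (adjusted p from 0.0524 without ZA replicate 3 to 0.225 without untreated replicate 1). The 4 globin genes together held 28.7% and 25.9% of the counts of the untreated and 20.2%, 18.3% and 17.1% of the G-CSF libraries. The gene that rose was Car1, carbonic anhydrase 1, from 173 and 208 to 357, 383 and 397 CPM (0.99 ± 0.16, adjusted p = 0.00569).

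Several further genes fell, among them some known from maturing red cells. Which cells these changes came from was not tested. Bpgm, which makes the 2,3-bisphosphoglycerate that loosens oxygen from haemoglobin, fell from 2173 and 1985 to 744, 678 and 632 CPM (−1.60 ± 0.15, adjusted p = 0.000262). Tspo2, an erythroid cholesterol and porphyrin transporter, fell from 159 and 135 to 16.3, 13.7 and 12.01 CPM (−3.39 ± 0.22, adjusted p = 3.1e-05). Bcl2l1, the survival protein of maturing red cells and many other cells, fell from 487 and 422 to 193, 182 and 176 CPM (−1.31 ± 0.18, adjusted p = 0.00238), and Cat, catalase, from 317 and 349.6 to 157, 154 and 114 CPM (−1.24 ± 0.17, adjusted p = 0.00228). Ubb, a ubiquitin gene, fell from 1894 and 1525 to 561, 479 and 508 CPM (−1.73 ± 0.18, adjusted p = 0.000426). Of 20 genes of haem synthesis and iron 7 fell and 2 rose, with a median of −0.72. Of those that rose, Alad, the second enzyme of haem synthesis, went from 279.9 and 202 to 537, 477 and 434 CPM (1.00 ± 0.19, adjusted p = 0.01), and Steap3, which reduces iron in endosomes, went from 57.1 and 46.1 to 116, 118 and 89.1 CPM (1.07 ± 0.20, adjusted p = 0.0102). Neither was called with untreated replicate 2 (at an adjusted p of 0.0757) left out, where Steap3 had an adjusted p of 0.0799. Cpox, a late enzyme of the pathway, fell from 439 and 406 to 199, 209 and 139 CPM (−1.21 ± 0.20, adjusted p = 0.00628). Relative to all genes the medians on the log2(TPM + 0.5) scale were −0.19 for the erythroid and −0.50 for the haem list. On that scale, where most calls were higher, the erythroid list had 4 higher and 1 lower and the haem list 4 higher and 0 lower.

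Lymphocyte genes showed uneven changes. Of 19 early B lineage genes 2 fell and none rose, a share called of 10.5% against 11.8% of all tested genes. Bach2, a repressor that holds B cells back from plasma cell fate, fell from 72.2 and 109.7 to 22.7, 22.8 and 25.8 CPM (−1.94 ± 0.22, adjusted p = 0.000808), and Rag1, which cuts antigen receptor genes for recombination, from 60.9 and 72.6 to 31.02, 35.05 and 35.5 CPM (−0.98 ± 0.16, adjusted p = 0.00585). Of 16 mature B and plasma cell genes 5 fell (Jchain, Cd22, Ms4a1, Bank1 and Fcrla) and none rose, with a median of −0.59. Cd22, an inhibitory co-receptor, fell from 59.5 and 104 to 15.4, 12.7 and 19.01 CPM (−2.38 ± 0.29, adjusted p = 0.00117), and Ms4a1, which encodes CD20, from 91.02 and 70.5 to 35.8, 37.3 and 38.1 CPM (−1.12 ± 0.16, adjusted p = 0.00244). Jchain, which joins secreted IgM and IgA, was at 102 and 673 CPM in untreated and 46.1, 40.7 and 39.1 CPM in G-CSF marrow (−3.21 ± 0.72, adjusted p = 0.0313). Untreated replicate 2 was far above untreated replicate 1 in this gene, and the call was lost with untreated replicate 2 (at an adjusted p of 0.131), G-CSF replicate 1 (0.101), G-CSF replicate 2 (0.0986), G-CSF replicate 3 (0.0975), combined replicate 1 (0.0502) or combined replicate 3 (0.0502) left out. The mature B count was 2 without untreated replicate 2 and 3 in the fits that lacked G-CSF replicate 1, G-CSF replicate 2 or either combined library. The summed B lineage markers overlapped, at 559.9 and 472 CPM in untreated and 381, 375 and 523 CPM in G-CSF marrow.

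Subunits of the same T cell receptor complex moved apart, with Cd3e among the genes near 0 with G-CSF. Of 17 T cell genes 6 fell (Cd3e, Cd8b1, Cd8a, Cd3g, Cd6 and Tcf7) and 1 rose, with a median of −0.85. Summed T cell markers overlapped between the groups, at 94.4 and 64.1 CPM in untreated and 94.5, 73.3 and 50.8 CPM in G-CSF marrow. The chain Cd3d rose from 8.60 and 9.65 to 40.9, 39.05 and 30.4 CPM (2.01 ± 0.22, adjusted p = 0.0006). Its partner Cd3e, chosen after its values were seen, went from 4.08 and 6.05 to 0, 0 and 0.189 CPM (−6.23 ± 0.91, adjusted p = 0.00322, a fitted size that depends on the prior count), and Cd3g from 7.70 and 5.40 to 0.867, 2.38 and 0.473 CPM (−2.34 ± 0.59, adjusted p = 0.0343). The call of Cd3g was lost with untreated replicate 1 (at an adjusted p of 0.116), untreated replicate 2 (0.0881), G-CSF replicate 1 (0.0981), G-CSF replicate 3 (0.0586), combined replicate 1 (0.0541) or combined replicate 3 (0.0538) left out. Cd8a, the co-receptor of killer T cells, fell from 7.70 and 6.70 to 0.674, 0.116 and 0.378 CPM (−4.25 ± 0.62, adjusted p = 0.00327). By mean TPM, Cd3e was at 1.29 untreated and 0.0279 with G-CSF, and Cd8a at 0.794 and 0.0753. Both are thus near 0 on one side, and genetic background and treatment cannot be told apart in them. Without untreated replicate 2 or G-CSF replicate 1, 3 fell and 1 rose. Of 15 NK and cytotoxic genes 4 rose (Ncr1, Gzma, Eomes and Nkg7) and none fell, and 2 remained without untreated replicate 2. Ncr1, the activating receptor NKp46 that marks NK cells, rose from 1.36 and 2.13 to 10.9, 12.05 and 7.94 CPM (2.53 ± 0.44, adjusted p = 0.00691), and Gzma, granzyme A, from 7.25 and 5.72 to 37.6, 40.1 and 25.7 CPM (2.42 ± 0.31, adjusted p = 0.00148). The plot of levels by library shows Cd3d and Cd3e moving in opposite directions with no overlap between groups in either.

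**Figure D4:**
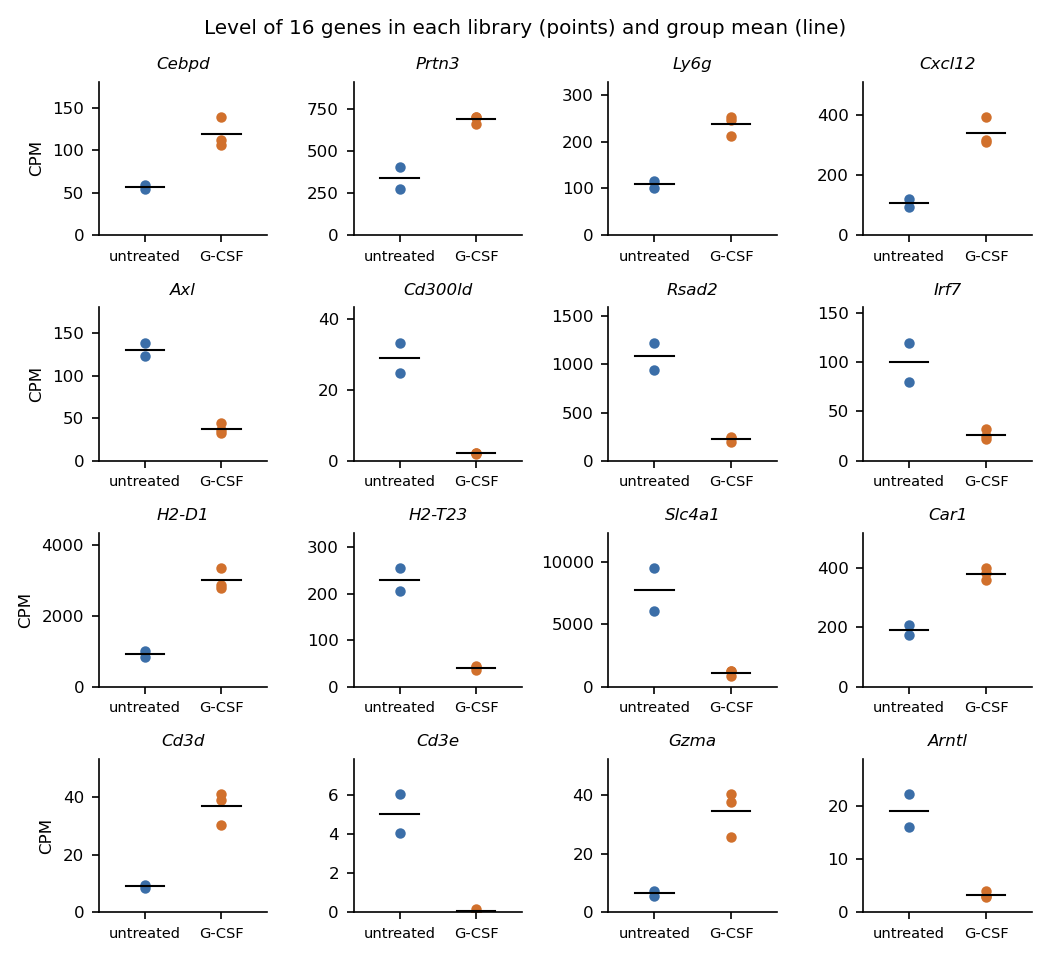
Level of 16 genes in each library (CPM, linear axis from 0), with untreated libraries in blue, G-CSF libraries in orange and a line at each group mean. The 2 groups do not overlap in any of the 16 panels, which the rule for naming genes required of most of them. Cd3e was chosen after its values were seen. Cxcl12 was kept whatever its values and was not called (adjusted p = 0.137).

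Genes of platelets, stroma and muscle were higher with G-CSF but mostly missed the threshold. In the list of 18 megakaryocyte and platelet genes 17 lay above 0 and the median was 1.79, yet 1 rose (Gp9) and 1 fell (Nfe2). The share called was thus 11.1%, against 11.8% of all tested genes. Gp9, a subunit of the platelet receptor for von Willebrand factor, was at 20.6 and 11.8 CPM untreated and 58.8, 41.4 and 56.5 CPM with G-CSF (1.70 ± 0.46, adjusted p = 0.0481), and the call was lost with untreated replicate 1 (at an adjusted p of 0.0717), untreated replicate 2 (0.255), G-CSF replicate 1 (0.107), G-CSF replicate 2 (0.0728) or G-CSF replicate 3 (0.102) left out. Without ZA replicate 2 or ZA replicate 3, 11 of the 18 were called higher; without untreated replicate 2 or any of the G-CSF replicates none was. The summed megakaryocyte markers were at 313 and 120.2 CPM in untreated, 989.5, 920.0 and 1216 CPM in G-CSF and 95.8 and 678 CPM in ZA marrow.

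Of 23 genes of osteoblasts, matrix and stroma 2 rose (8.70% called, against 11.8% of all tested genes), with a median of 1.24. Dcn, decorin, rose from 1.13 and 1.31 to 10.02, 6.95 and 7.09 CPM (2.69 ± 0.55, adjusted p = 0.0141), though not with untreated replicate 1 (at an adjusted p of 0.0626) or untreated replicate 2 (0.0883) left out, and Col1a2, a chain of type I collagen, by 1.48 ± 0.38 (adjusted p = 0.0389), though not with untreated replicate 1 (at an adjusted p of 0.153), untreated replicate 2 (0.103), G-CSF replicate 1 (0.0852), G-CSF replicate 2 (0.0749) or G-CSF replicate 3 (0.0895) left out. Bglap, osteocalcin, was at 0.679 and 3.43 CPM untreated and 4.72, 4.23 and 6.24 CPM with G-CSF (1.24 ± 0.54, adjusted p = 0.165). Without ZA replicate 2 or 3 the stromal count was 7, without untreated replicate 1 it was 0, and without any other single untreated or G-CSF library it was 1. Ctsk, the collagen-digesting protease of osteoclasts, rose from 4.08 and 3.11 to 16.1, 17.9 and 22.5 CPM (2.40 ± 0.46, adjusted p = 0.011), though not with untreated replicate 2 (at an adjusted p of 0.0893) left out, and was the 1 called of 12 osteoclast genes. Of 14 endothelial genes all changes were positive and 1, Ly6c1, was called (7.14%). Ly6c1 is also listed as strain-variable, and its reads cannot be told from those of Ly6c2 with certainty. Summed endothelial markers, of which none was called, overlapped at 17.4 and 7.52 CPM untreated and 13.4, 15.2 and 28.0 CPM with G-CSF. In the skeletal muscle list 3 genes were at 0.1 TPM or less in 1 group and above 1 TPM in the other. Of its 14 tested genes 6 rose and none fell. Their summed level was 24.7 and 19.5 CPM in untreated, 129, 98.0 and 90.3 CPM in G-CSF and 484.5 and 286 CPM in combined marrow, and no member was called without untreated replicate 2. Ckm, the creatine kinase of muscle, was at 1.13 and 0.327 CPM untreated and 13.8, 8.92 and 5.67 CPM with G-CSF (3.78 ± 0.66, adjusted p = 0.00805), though not called with untreated replicate 2 (at an adjusted p of 0.0799) left out. Of 15 complement components C4b and Serping1, the inhibitor of the first complement proteases, rose (13.3% called). Neither was called in a fit that lacked any untreated, G-CSF or combined library. Serping1 was at 7.92 and 8.18 CPM untreated and 36.5, 33.5 and 43.1 CPM with G-CSF (2.22 ± 0.55, adjusted p = 0.0357), and its call was lost with untreated replicate 1 (at an adjusted p of 0.12), untreated replicate 2 (0.169), G-CSF replicate 1 (0.078), G-CSF replicate 2 (0.0692), G-CSF replicate 3 (0.0801), combined replicate 1 (0.0599) or combined replicate 3 (0.0602) left out. Beside these results, the summed stromal markers were at 189 and 156 CPM in untreated and 439, 426 and 543 CPM in G-CSF marrow. In ZA replicates 2 and 3, from mice without G-CSF, the sums were 179 and 631 CPM, so replicate 3 lay above each G-CSF library. The part of other cell types in these results was not tested.

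Genes of DNA copying and of cell division did not move as one. Of 22 DNA replication genes 4 rose (Mcm3, Cdt1, Lig1 and Fen1) and none fell, with a median of 0.23. Mcm3, part of the replicative helicase, rose from 182 and 125 to 299, 305 and 353 CPM (1.06 ± 0.21, adjusted p = 0.0137), though not with untreated replicate 2 (at an adjusted p of 0.0963) left out. Without untreated replicate 2 none of the 4 was called, and without G-CSF replicate 1, G-CSF replicate 2 or combined replicate 1 2 were. Of 22 mitosis genes 5 fell (Bub1b, Ccna2, Tpx2, Ccnb1 and Kif11) and none rose, with a median of −0.21 that turned to 0.03 relative to all genes on the log2(TPM + 0.5) scale. Tpx2, which builds the spindle, fell from 284 and 262 to 162, 170.0 and 156 CPM (−0.75 ± 0.12, adjusted p = 0.00596), and Bub1b, of the spindle checkpoint, from 153 and 201 to 72.9, 108 and 62.1 CPM (−1.13 ± 0.23, adjusted p = 0.0138), though not with untreated replicate 2 (at an adjusted p of 0.102) or G-CSF replicate 1 (0.05) left out. The mitosis count was 1 without untreated replicate 2, 2 without G-CSF replicate 1 and 3 without combined replicate 1 or 3.

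Histone genes, whose transcripts mostly lack a poly(A) tail, depended on untreated replicate 1. Of 56 replication-dependent histone genes 13 fell and 1 rose, and the median was −1.91. Without untreated replicate 1 the counts were 3 and 0 and the median turned to 0.05 above that of all genes. Without untreated replicate 2, 28 fell and none rose, and without G-CSF replicates 1, 2 and 3 the counts were 5, 5 and 7 lower and none higher. Hist1h1a, a linker histone, was at 19.02 and 2.62 CPM in untreated and 1.93, 1.33 and 1.51 CPM in G-CSF marrow (−2.75 ± 0.68, adjusted p = 0.0312), with only untreated replicate 1 high, and was not called with untreated replicate 1 (at an adjusted p of 0.452), G-CSF replicate 1 (0.0719), G-CSF replicate 2 (0.0947) or G-CSF replicate 3 (0.0798) left out. Hist2h2be, a core histone whose 2 untreated libraries were alike, fell from 19.9 and 16.8 to 8.67, 7.76 and 8.13 CPM (−1.16 ± 0.20, adjusted p = 0.00691). The library with the high histone values is the one with the high small RNA share; what the 2 have in common was not tested.

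Of 84 cytoplasmic ribosomal protein genes 9 fell and 5 rose; with untreated replicate 2 left out, 9 fell and 1 rose. Rps2 fell from 962 and 663 to 20.6, 26.1 and 50.7 CPM (−4.65 ± 0.37, adjusted p = 0.000158), Rpl3 from 1184 and 929.9 to 226, 214 and 176 CPM (−2.36 ± 0.16, adjusted p = 4.2e-05) and Rps26 from 418 and 324 to 45.1, 37.4 and 64.02 CPM (−2.93 ± 0.28, adjusted p = 0.000346). Rpl27 rose from 7.02 and 22.7 to 53.3, 74.3 and 104 CPM (2.35 ± 0.47, adjusted p = 0.016). These 4 genes share 20.2% to 48.8% of their 31-base words with other annotated genes, pseudogenes among them. Of 13 mitochondrially encoded genes 5 fell and 2 rose. The cytochrome oxidase subunit mt-Co1 fell from 4746 and 4739 to 2345, 2438 and 2475 CPM (−0.97 ± 0.17, adjusted p = 0.0068) while mt-Co2, another subunit of the same enzyme, rose from 583 and 539 to 914, 1349 and 1463 CPM (1.15 ± 0.23, adjusted p = 0.0123), though not with untreated replicate 2 (at an adjusted p of 0.0877) left out. All 31-base words of mt-Co2 occur in other annotated genes as well. The mitochondrial count was 4 without untreated replicate 1 or G-CSF replicate 2 and 2 without untreated replicate 2. Of 27 nuclear respiratory chain genes 2 rose (Ndufs1 and Sdhc), and none was called in the fits that lacked untreated replicate 2, G-CSF replicate 1, G-CSF replicate 2 or either combined library.

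Among metabolic and stress genes a few clear changes stood in lists that mostly were not called. Of 20 mevalonate and sterol genes 2 rose and none fell (10% called, against 11.8% of all tested genes). Sqle, an enzyme of sterol synthesis, was one of them, though not with untreated replicate 1 (at an adjusted p of 0.125), untreated replicate 2 (0.0648), G-CSF replicate 1 (0.0848), G-CSF replicate 2 (0.0953), combined replicate 1 (0.0567) or combined replicate 3 (0.0565) left out. Cd36, a fatty acid transporter of monocytes, platelets and red cell precursors, fell from 200.2 and 258 to 65.6, 76.2 and 59.7 CPM (−1.77 ± 0.16, adjusted p = 0.000262). Of 25 glycolysis and hypoxia genes 3 fell (Eno1, Gapdh and Gpi1), a share of 12% against 11.8% of all tested genes. Gapdh was at 689.7 and 661 CPM untreated and 458, 363 and 379 CPM with G-CSF (−0.76 ± 0.14, adjusted p = 0.01). Gapdh is often used as a reference gene, and on the log2(TPM + 0.5) scale its change was 0.09, which is −0.53 relative to all genes there. Hspa8, a chaperone made at all times, fell from 1111 and 1348 to 448, 543 and 541 CPM (−1.27 ± 0.17, adjusted p = 0.00198), 1 of 4 that fell among 19 heat shock and oxidative stress genes, of which 1 rose; 3 were called without untreated replicate 1 or 2 or G-CSF replicate 1 or 2. Of 16 clock genes Arntl (ENSMUSG00000055116, chromosome 7, 113207465 to 113314126, mm10), the activator of the circadian loop, fell from 22.2 and 16.03 to 3.08, 2.90 and 4.07 CPM (−2.51 ± 0.28, adjusted p = 0.000688) and Nr1d1, its repressor, rose, the latter not without untreated replicate 1 or 2, any of the G-CSF replicates or either combined replicate. The labels used here give no hour of sampling. Arntl had 18.9 and 13.3 CPM in ZA and 4.24 and 3.65 CPM in combined marrow, so it was low in both groups given G-CSF.

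In the other lists the share called ran from 0% to 22.2%, highest for p53 targets and apoptosis, against 11.8% of all tested genes. Among them 1 rose of 18 stem and multipotent progenitor genes, 2 fell of 18 basophil, mast cell and eosinophil genes, 2 rose and 1 fell of 25 integrins, 2 fell of 15 inflammatory genes, 1 fell of 15 immediate early genes and none of 12 glucocorticoid response genes was called. Likewise 2 fell of 24 unfolded protein response genes, 2 rose and 2 fell of 18 p53 targets and apoptosis genes, 2 rose and 1 fell of 19 fatty acid genes, 3 fell of 23 lysosome genes and none of 23 proteasome genes was called. At an unadjusted p under 0.05 in edgeR the glucocorticoid list held 1 gene and the proteasome list 3, and DESeq2 called 0 and 2. In the fits that left out 1 library, each of these lists held 0 to 6 called genes, most often fewer without an untreated library.

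Several of the largest changes outside the near-0 genes were as follows. Tbata (ENSMUSG00000020096, chromosome 10, 61171954 to 61188841, mm10), a gene of thymus, brain and testis, rose from 0.226 and 0.327 to 23.1, 42.98 and 36.1 CPM (6.84 ± 0.46, adjusted p = 3.9e-05). At 0.0551 and 0.172 TPM in the untreated libraries, it lay close to the limit of 0.1 TPM. Its level was 0.527 and 0.613 TPM in ZA, 13.5 and 15.7 TPM in combined marrow and 0.221 to 0.593 TPM in the 8 first-run precursor libraries. Genetic background and treatment cannot be told apart in Tbata. Ugt8a, which makes galactolipids, rose from 1.36 and 2.94 to 26.4, 27.5 and 19.6 CPM (3.46 ± 0.34, adjusted p = 0.000347). Mst1r, the receptor of macrophage-stimulating protein, was at 0 and 2.45 CPM untreated and 14.5, 10.1 and 15.04 CPM with G-CSF (3.28 ± 0.84, adjusted p = 0.0385), though not called with untreated replicate 1 (at an adjusted p of 0.0595), G-CSF replicate 1 (0.0895), G-CSF replicate 2 (0.0689), G-CSF replicate 3 (0.0803), combined replicate 1 (0.0634) or combined replicate 3 (0.0658) left out. Among the largest falls were Ppfia4, a liprin of synaptic vesicle sites, from 24.5 and 27.96 to 1.35, 0.695 and 1.89 CPM (−4.36 ± 0.34, adjusted p = 0.000104), and Ccdc92b from 49.8 and 52.2 to 2.79, 3.77 and 3.31 CPM (−3.94 ± 0.24, adjusted p = 2.3e-05). Ift140, a part of the transport machine of cilia, fell from 214 and 193 to 21.2, 17.2 and 18.1 CPM (−3.43 ± 0.16, adjusted p = 3.5e-06), and Nckipsd, an actin regulator, from 34.4 and 48.6 to 2.99, 2.32 and 4.26 CPM (−3.72 ± 0.28, adjusted p = 7.6e-05). Vill (ENSMUSG00000038775, chromosome 9, 119052778 to 119071525, mm10), a villin-like gene, was at 48.5 and 61.5 CPM in untreated and 0.289, 0.0579 and 0.189 CPM in G-CSF marrow (−8.32 ± 0.68, adjusted p = 0.000209), just above 0.1 TPM. Zbtb38, a zinc finger repressor, fell by 4.01 ± 0.71 (adjusted p = 0.0127), though not with G-CSF replicate 1 (at an adjusted p of 0.058) or G-CSF replicate 3 (0.0506) left out. Nckipsd was at 14.4 and 18.5 CPM in the combined group, between the G-CSF and the untreated libraries, and Zbtb38 was at 13.1 CPM in ZA replicate 2 and 93.9 CPM in ZA replicate 3.

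A few further genes with large falls are known from defence against viruses. Trim12a, a relative of the retrovirus restriction factor TRIM5, fell from 45.3 and 36.5 to 1.64, 1.62 and 0.567 CPM (−4.96 ± 0.33, adjusted p = 3.9e-05). Apobec3 (ENSMUSG00000009585, chromosome 15, 79891659 to 79915906, mm10), a cytidine deaminase that mutates retroviral DNA and is known to differ between strains, fell from 161 and 161 to 24.6, 30.1 and 23.6 CPM (−2.62 ± 0.18, adjusted p = 4.2e-05). Ifi213, of the interferon-inducible p200 family, fell from 10.6 and 12.4 to 0.578, 0.753 and 1.42 CPM (−3.65 ± 0.43, adjusted p = 0.000991). In all 3 the G-CSF libraries lay below the untreated ones, as naming by rule required. Those of Trim12a and Ifi213 differed among themselves at low levels.

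Genes that share most of their sequence with other genes made up a larger part of the calls. Sharing was measured as the share of 31-base words of a gene's transcripts that occur in another gene. Of 2856 genes with no shared word 11.4% were called and 2.73% were called with more than a 4-fold change, and of 7450 with up to 10% shared 10.1% and 2.17%. Of 1501 genes with over 50% shared 19.0% were called and 12.7% were called with more than a 4-fold change. Among 217 called genes that share over 50% of their words with 1 partner, 188 had a tested partner, which moved the opposite way in 96 and was itself called in 39 of these.

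The opposite sign was thus found in 96 of 188 pairs, close to 50%. The same share among unrelated genes was not computed, so this count has no background beside it. A few pairs, some of which share less than 50%, are given with their levels. Gm10184, which shares 95.8% of its words with the nuclear import gene Kpna2, was at 0 and 0 CPM in untreated and 213, 229 and 182 CPM in G-CSF marrow. Kpna2 fell from 289 and 264 to 42.2, 44.5 and 37.4 CPM (−2.74 ± 0.19, adjusted p = 4.2e-05). Their sums, 289 and 264 against 255, 274 and 219 CPM, overlapped between the groups. Eno1b shares 81.8% of its words with the glycolytic Eno1 and was at 0 and 0 CPM untreated and 226, 190.5 and 234 CPM with G-CSF, while Eno1 fell from 546 and 498 to 201, 191 and 211 CPM (−1.38 ± 0.14, adjusted p = 0.000404). Their sums were 546 and 498 against 426, 381 and 445 CPM, which did not overlap but moved far less than either gene. Lyz1, the lysozyme of Paneth cells, shares 34.2% of its words with the myeloid Lyz2. It rose from 4.75 and 4.58 to 1015, 945 and 659 CPM (7.55 ± 0.28, adjusted p = 1.3e-06), while Lyz2 was at 6461 and 5595 CPM untreated and 4961, 4776 and 3458 CPM with G-CSF (−0.45 ± 0.20, adjusted p = 0.157). Tpm3-rs7 rose from 4.08 and 0.491 to 477, 499 and 480.3 CPM (7.86 ± 0.55, adjusted p = 7.6e-05) without such a balance, since Tpm3 was at 332 and 381 CPM untreated and 275, 294 and 221 CPM with G-CSF and the sums went from 336 and 381 to 752, 792 and 702 CPM. Among the stefins, cysteine protease inhibitors of neutrophils in a cluster on chromosome 16, BC100530 rose from 0.453 and 2.78 to 34.3, 32.4 and 20.7 CPM (4.06 ± 0.56, adjusted p = 0.00279) and Stfa2 from 0.226 and 1.14 to 10.5, 8.57 and 4.63 CPM (3.40 ± 0.63, adjusted p = 0.00968), while Stfa1 fell from 2.94 and 4.25 to 0, 0.116 and 0 CPM (−5.84 ± 0.82, adjusted p = 0.00373). How reads were divided within such pairs, and the part of strain differences in them, was not tested.

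**Figure D5:**
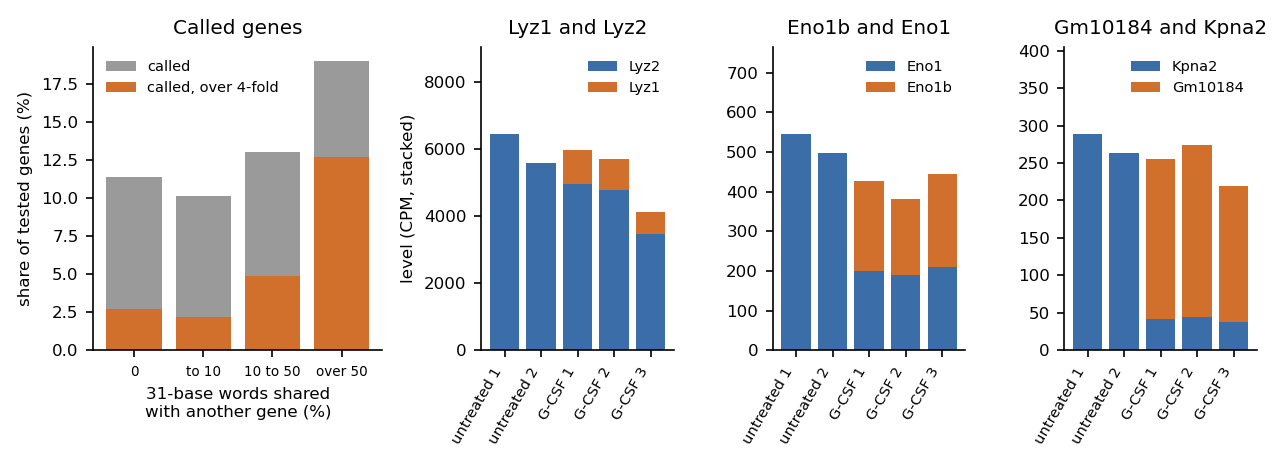
Left, percent of tested genes called (grey) and called with more than a 4-fold change (orange) by the share of 31-base words that occur in another gene; right, stacked levels (CPM) of 3 gene pairs in each library. Called genes make up 19.0% of genes with over 50% shared words against 11.4% of those with none, and the sums of Gm10184 and Kpna2 overlap between the groups although each gene separates them.

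Genes near 0 on one side make up the last group. Of the called genes 99 were at a mean of 0.1 TPM or less in untreated and above 1 TPM in G-CSF marrow, and 30 the reverse. Of these 129, 49 were protein-coding, 59 were pseudogenes and 60 shared over 50% of their words with another gene. In 77 of the 99 and 13 of the 30, both ZA libraries lay on the untreated side of 1 TPM and both combined libraries on the G-CSF side. Just inside the limit, Pawr was at 0.0792 TPM in untreated marrow and Stfa1 at 0.0868 TPM with G-CSF; just outside it, Ghrl was at 0.107 TPM and Rnase12 at 0.109 TPM with G-CSF.

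The protein-coding genes with the highest levels on the other side included Gm10184 and Eno1b. Fam166a (ENSMUSG00000026969, chromosome 2, 25218745 to 25222280, mm10), a gene of sperm flagella with 8.09% of its words shared, was at 0 and 0 TPM in untreated and 70.9, 71.2 and 104 TPM in G-CSF marrow, which is at least 13.2-fold higher by counts against 3 counts over the untreated group (adjusted p = 0.00296). H2-Q2, a class I gene, was at 0.0471 and 0 TPM untreated and 12.5, 12.8 and 14.99 TPM with G-CSF (adjusted p = 4.7e-05), and the stefin BC117090 at 0 and 0 TPM untreated and 23.02, 30.8 and 19.3 TPM with G-CSF (adjusted p = 0.0014), which is at least 27.4-fold higher. Eps8l1 (ENSMUSG00000006154, chromosome 7, 4460674 to 4480487, mm10), an actin regulator with 0.577% of its words shared, was at 3.98 and 7.82 TPM untreated and 0, 0 and 0.0351 TPM with G-CSF (adjusted p = 0.000134). Gvin1, a large interferon-induced GTPase 99.7% of whose words occur in other genes, was at 44.2 and 97.96 CPM untreated and 0, 0 and 0 CPM with G-CSF (adjusted p = 0.00101), which is at least 961-fold lower against 3 counts over the G-CSF group. Hist1h4m, a histone gene, was at 24.5 and 2.62 CPM untreated and 0, 0 and 0 CPM with G-CSF (adjusted p = 0.00912), with untreated replicate 1 far above untreated replicate 2. The sorted precursors of the first run stood on the untreated side in the genes of this kind that were looked up: in the 6 libraries from mice given G-CSF alone or with ZA, Eno1b was at 0 to 0.45 TPM, Eps8l1 at 3.22 to 25.2 TPM, Gvin1 at 5.11 to 13.4 TPM and Vill at 55.9 to 95.5 TPM. Mice of the 2 sets are not tied to each other by the labels.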

How the data were processed

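The whole marrow libraries were quantified with Salmon against mm10, per the submitters' processing notes, which also name DESeq2 1.16.1; the strand setting is not given in the sources used here. The authors deposited estimated counts per gene, which were rounded to whole numbers, and TPM values, which were used for the near-0 limit and for alternatives. Names and positions came from GENCODE vM21 (99.1% of 47729 identifiers matched). Every column had a sample. Genes were filtered with filterByExpr (10 counts in a library, 15 in total), scaled by TMM and fitted with edgeR 4.0.16 (R 4.3.3) in 1 model of 4 groups with 9 libraries; p values were adjusted by Benjamini-Hochberg over all tested genes. Alternatives used DESeq2 1.42.0 and limma 3.58.1 on log2(TPM + 0.5) or log2(TPM + 0.1). The fit was tested on simulated data.

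The members and the 52 gene lists were chosen with earlier results of these data known. Genes named by rule were called, protein-coding, at a mean of at least 5 CPM, above 0.1 TPM in both groups and without overlap between groups. Of these, the 12 largest changes and the 8 largest differences of CPM in each direction, and up to 3 per list and direction, were eligible for naming, with the 6 near-0 genes per direction of highest level and 14 genes kept whatever their values. Cd3e, Cd3g, Cd8a, Lyz2, Tpm3, Kpna2, H2-Ea-ps, Mir6236, Ifit1 and genes given without values were chosen after their values were seen. Some genes that the rule names are not reported here.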

Additional observations from a re-analysis of the deposited data

How the results depend on the processing

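Of 137 genes followed through all settings 125 were called, and 59 of these were called in every setting that tested them. Higher and lower counts (727 and 1019) became 1432 and 1774 with no filter on low counts, 3087 and 181 on log2(TPM + 0.5), 3319 and 184 on log2(TPM + 0.1), and 3769 and 427 with TPM rescaled to the protein-coding total, a setting chosen after seeing the data. With genes sharing over 10% of their words left out, also chosen after seeing the data, 398 were higher. With 1 library left out the counts ran from 287 to 777 higher and from 549 to 934 lower, lowest without untreated replicate 2, and the 129 near-0 calls from 88 to 137. The near-0 calls were 50 with protein-coding genes only and 36 without genes of shared sequence, where fewer genes were tested. With the replicate block the counts were 544, 817 and 115. Deviations of same-numbered libraries correlated at 0.03 and 0.04 across genes, with 2 shared numbers. With 2 untreated libraries the deviations of 1 mirror those of the other. The check therefore cannot decide whether same-numbered libraries share more than a number. Some genes changed sign. The TPM scales shift all genes upward (medians of 0.62, 0.79 and 0.39). On log2(TPM + 0.5) and log2(TPM + 0.1) the values were 0.25 and 0.25 for Cxcr4, 0.094 and 0.094 for Gapdh, 0.15 and 0.15 for Hba-a2, 0.61 and 0.70 for Kit, 0.39 and 0.39 for Lyz2, 0.86 and 0.87 for Mmp9, 0.41 and 0.42 for Tpm3, and 0.10 and 0.11 for Tpx2. With rescaled TPM they were 0.34 for Kit, 0.054 for Lyz2, 0.53 for Mmp9 and 0.081 for Tpm3. Relative to the median of all genes, Cxcr4 (−0.37), Gapdh (−0.53), Hba-a2 (−0.47), Kit (−0.01), Lyz2 (−0.24), Tpm3 (−0.21) and Tpx2 (−0.52) stayed negative on log2(TPM + 0.5), while Mmp9 was at 0.24. For the sign changes that follow the cause was not tested. With DESeq2, small RNA genes left out and protein-coding genes only, Cebpe was at −0.0072, −0.00029 and −0.0033 and Csf3r at −0.012, −0.0028 and −0.0042. Mmp9 was at 0.024 with no filter, 0.018 with the block and 0.0020 without near-0 genes. With 1 library left out, values ran from −0.19 (no G-CSF replicate 1) to 0.11 (no G-CSF replicate 3) for Cebpe, −0.23 (no untreated replicate 1) to 0.29 (no untreated replicate 2) for Csf3r, −0.72 (no untreated replicate 1) to 0.50 (no untreated replicate 2) for Kit, −4.95 (no untreated replicate 2) to 0.62 (no untreated replicate 1) for Mir6236, −0.28 (no untreated replicate 1) to 0.32 (no untreated replicate 2) for Mmp9 and −0.28 (no G-CSF replicate 3) to 1.20 (no G-CSF replicate 2) for Socs3. With 2 untreated libraries, changes of low genes were not detectable at this depth where both groups lay near 3 counts.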

Other observations

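Called genes were spread over the chromosomes. The share called ran from 7.02% of the tested genes on chromosome X to 14.5% on chromosome 17, which carries the H2 genes, against 11.8% of all tested genes.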
